A study of Homo sapiens and Mus musculus with 12 samples.

Results

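The genes described here are the D-type cyclins (CCND1, CCND2, CCND3), their kinases CDK4 and CDK6, the CDK inhibitors CDKN1A (p21), CDKN1B (p27), CDKN1C (p57) and CDKN2C (p18), and the retinoblastoma gene RB1. They were taken by symbol, in capitals, from the TPM tables of 2 melanoma cell lines, and 9 of the 10 genes had a row in each table, among 16782 genes in A375 and 12711 in Yumm1.7. CCND2 was not analysed in A375 and Cdkn1c was not analysed in Yumm1.7. All 9 genes in each line averaged 1 TPM or more across that line's 6 libraries and so passed the filter on low values.

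Polysome profiling followed by sequencing of poly(A) RNA was used: a sucrose gradient separates mRNAs by how many ribosomes are bound to them. The lines were A375, of human melanoma, and Yumm1.7, of mouse melanoma. As background, both carry activating BRAF mutations, while Yumm1.7 also derives from tumours lacking Cdkn2a. Each line was profiled as drug-tolerant persister cells, which outlive a drug without stable resistance, and as parental cells. The labels call the states of each line S and P without saying which is which and name no drug, dose or time, so the letters are kept and every difference between states is S minus P. For both states of both lines, 1 library was made from input RNA, 1 from polysomes (the bottom of the gradient) and 1 from monosomes (the peak of single ribosomes plus some lighter material). The 12 libraries form 12 groups of 1 library, so no value has a replicate spread, no statistical test across replicates was made, and no p-value is given.

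D-type cyclins bind CDK4 and CDK6, and the active kinase phosphorylates RB1 and its relatives, which releases E2F transcription factors and lets a cell pass from G1 into S phase. Cyclin D1 is the member most tied to growth signals: in melanoma with mutant BRAF its transcription follows the MAPK pathway. INK4 inhibitors such as CDKN2C bind CDK4 and CDK6 and keep D cyclins off. CIP/KIP inhibitors (CDKN1A, CDKN1B, CDKN1C) bind cyclin-CDK complexes and block above all CDK2, and they are also held by cyclin D complexes.

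Promoter sequence gives the genomic setting of the human members. The RefSeq table (GRCh38.p14) held 12 start windows for 7 of the 10 genes. CCND1, CCND2 and CDKN1C had no entry. Shown are the 250 bases before 1 transcript start of CDK6, the member with an entry that was furthest below the median gene in A375, and of CDKN2C, which was above the median gene in S input, monosomes and polysomes of both lines. Capitals mark GC boxes (GGGCGG on either strand, overlapping matches included), which bind SP1-family factors. The CDK6 window is chr7:92836574-92836823 on the minus strand and the CDKN2C window, 1 of 3 for that gene, is chr1:50968456-50968705 on the plus strand.
CDK6: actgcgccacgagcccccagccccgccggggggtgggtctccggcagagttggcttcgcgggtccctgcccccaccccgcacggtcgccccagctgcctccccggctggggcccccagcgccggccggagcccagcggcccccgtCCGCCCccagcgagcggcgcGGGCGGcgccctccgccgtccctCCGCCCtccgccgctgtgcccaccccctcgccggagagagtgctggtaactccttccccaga
CDKN2C: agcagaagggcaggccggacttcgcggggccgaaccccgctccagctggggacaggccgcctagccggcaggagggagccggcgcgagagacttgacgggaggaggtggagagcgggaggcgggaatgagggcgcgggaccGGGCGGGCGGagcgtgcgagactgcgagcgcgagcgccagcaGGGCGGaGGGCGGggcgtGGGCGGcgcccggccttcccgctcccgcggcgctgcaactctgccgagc
The CDK6 window held 3 GC boxes and was 80.0% G and C, and the CDKN2C window held 5 and was 77.2% G and C. The other starts of both genes differed: the other CDK6 window held 0 GC boxes, and the other CDKN2C windows held 0 and 1. A GC box occurred in 42.6% of all 35116 RefSeq windows of the same length. The E2F core TTTNGCG, found in 4.32% of all windows on either strand, matched none of the 12 windows of these genes. The AP-1 motif TGANTCA, found in 6.57% of all windows, matched 1 window, at a start inside the RB1 gene. That was the only RB1 window, so the sequence before the first base of the RB1 gene was not searched. A match or its absence in these windows says nothing about binding in these cells.

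TPM is a read density per transcript length, scaled to 1000000 per library, so levels of different genes can be compared within a library but amounts of RNA per fraction cannot. The listed genes made up 66.6% to 90.1% of 1000000 in A375 and 84.5% to 94.4% in Yumm1.7, and read depth is unknown. The median gene shifted between libraries: its S minus P difference in log2(TPM + 1) was -0.20 in input, 0.04 in monosomes and -0.21 in polysomes of A375, and -0.94, -0.21 and -1.53 in Yumm1.7. Differences below are therefore relative to the median gene unless called as deposited, and a gene is counted when it is at least 2-fold from it. Mitochondrially encoded RNA took 22.3%, 24.4% and 22.9% of listed TPM in Yumm1.7 S input, monosomes and polysomes, against 10.9%, 18.3% and 2.01% in P. In A375 it took 20.7%, 48.6% and 10.1% in S and 16.2%, 42.4% and 2.55% in P. Listed genes at 0 numbered 965 to 1581 in Yumm1.7 S libraries and 276 to 336 in P libraries. Of 8 melanocyte markers, 6 were listed in A375 (summed 430 to 864 TPM in S and 259 to 586 in P), whereas in Yumm1.7 the 4 listed (Mitf, Mlana, Pmel and S100b) summed to 0.571 to 2.53 TPM in S and 5.09 to 7.21 in P, with 3 of them at 0 in S input. Of 8 fibroblast markers, 7 were listed in Yumm1.7 and summed to 262 to 605 TPM in S and 12.9 to 47.3 in P, and 3 were listed in A375 (2.06 to 4.18 in S and 1.60 to 7.15 in P). The sums did not hold for every marker. MITF in A375 had 43.0, 44.2 and 32.0 TPM in S input, monosomes and polysomes, against 66.6, 56.6 and 78.4 in P. S100B was lower in S input and SOX10 in S polysomes, while DCT, PMEL and TYRP1 were higher in each fraction. DCT had 173.0 TPM in S monosomes and 12.6 in P. In Yumm1.7 the lower melanocyte sum in S was mostly Mitf, with 0.571, 0.457 and 0.429 TPM in S input, monosomes and polysomes, against 4.76, 7.01 and 5.14 in P. Mlana, Pmel and S100b were higher in S polysomes, and Mlana and S100b also in S monosomes. The highest of these was Mlana in S monosomes, at 1.52 TPM. Of the Yumm1.7 fibroblast markers, Col3a1 made up 507.2 of the 605 TPM in S monosomes. Pdgfra was lower in S input and polysomes, and the others listed were higher throughout. The part of these differences in the results below was not tested. Of leukocyte, keratinocyte and endothelial markers, 2, 2 and 1 were listed in A375 and 1 each in Yumm1.7. A375 CD74, which melanoma cells can express, had 8722, 2651 and 15305 TPM in S input, monosomes and polysomes, against 701, 254 and 1550 in P. In bulk RNA, fewer cells of a kind and less RNA per cell cannot be told apart.

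CCND1 was the only one of these genes that was at least 2-fold lower in S in all 3 fractions of both lines, a pattern shared by 230 (2.70%) of 8522 genes matched between the lines. In A375, CCND1 (chromosome 11, 69641087 to 69654474, plus strand, GRCh38) had 38.5 TPM in S input, 40.5 in S monosomes and 39.5 in S polysomes, against 117, 98.0 and 199 in the P libraries. The 3 S libraries lay together and below all 3 P libraries. The log2 difference was -1.39 in input, -1.29 in monosomes and -2.09 in polysomes, and as deposited CCND1 was 3.05-fold, 2.42-fold and 5.04-fold lower. In Yumm1.7, Ccnd1 had 2.47 TPM in S input, 13.2 in S monosomes and 2.08 in S polysomes, against 189, 215 and 270 in the P libraries. Again no S library reached a P library, and the S monosome library was the highest of the 3 in S. The log2 differences were -4.84, -3.72 and -4.93, and as deposited Ccnd1 was 76.7-fold lower in input, 16.4-fold in monosomes and 130-fold in polysomes. The plot of levels shows this gap beside the other members.

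**Figure D1:**
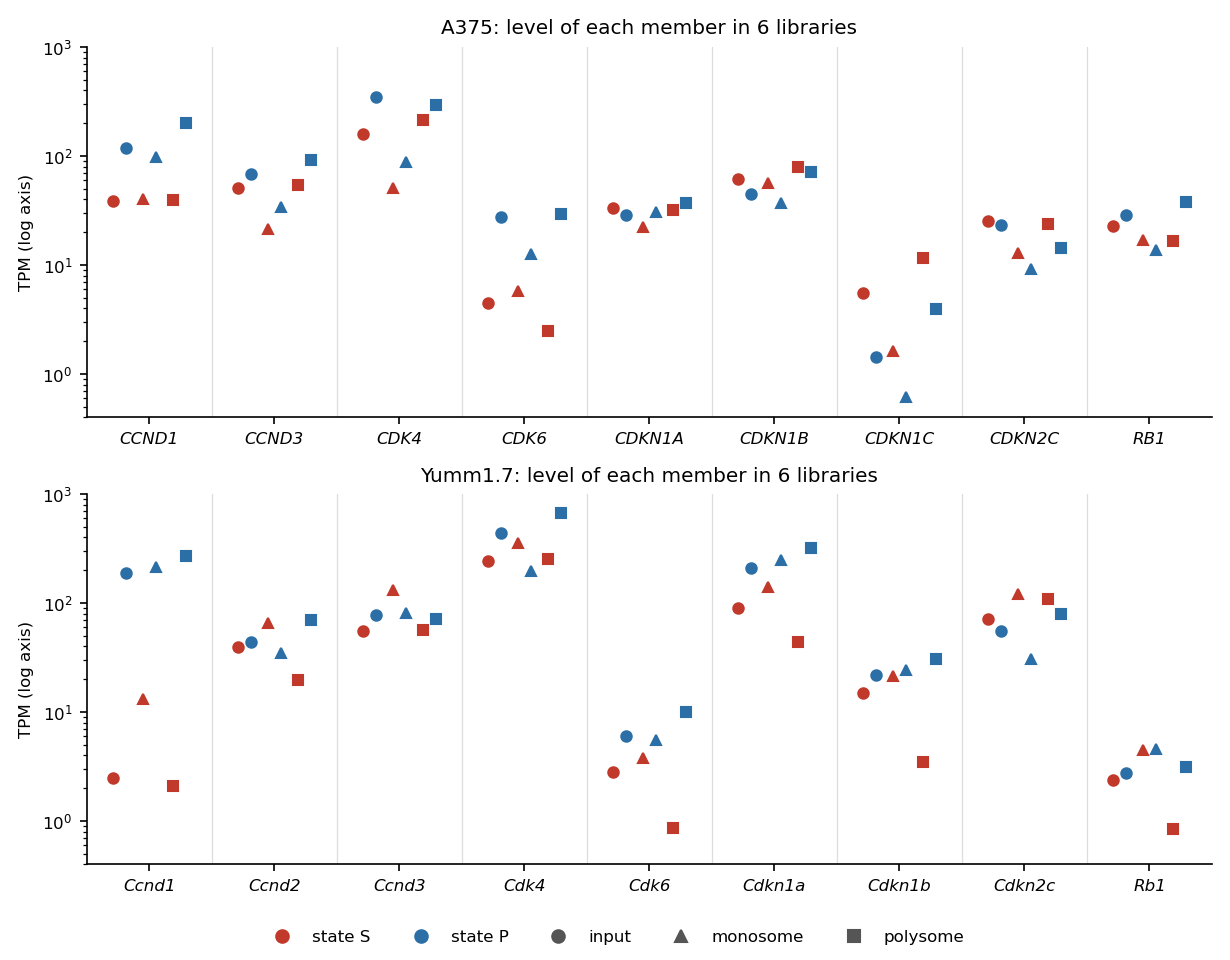
Level of each gene in the 6 libraries of A375 (top) and Yumm1.7 (bottom), in TPM on a log axis; red is state S, blue is state P, and circles, triangles and squares are input, monosome and polysome libraries, 1 library per point. CCND1 has all S points below all P points in both lines, from 2.08 to 13.2 TPM in Yumm1.7 S against 189 to 270 in P.

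The other D cyclins, which bind the same kinases but are less tied to MAPK signalling, were not at least 2-fold lower in any fraction relative to the median gene, though Ccnd2 was in Yumm1.7 polysomes as deposited. CCND3 in A375 (chromosome 6, 41934933 to 42050357, minus strand) had 50.9 TPM in S input, 21.6 in S monosomes and 53.6 in S polysomes, against 68.3, 34.1 and 92.3 in P. Each S library was lower than its P counterpart, but the ranges of the states overlapped. All 3 log2 differences were within 2-fold (-0.22, -0.68 and -0.56). In Yumm1.7, Ccnd3 had 55.1, 133 and 56.5 TPM in S input, monosomes and polysomes, against 78.1, 80.8 and 71.8 in P. The S monosome library was the highest of the 6 and S input the lowest. Relative to the median gene Ccnd3 was within 2-fold in input (0.44) and monosomes (0.92) and higher in polysomes (1.19), but as deposited the polysome value was below 0 (-0.34). Ccnd2 in Yumm1.7 had 39.2 TPM in S input, 65.1 in S monosomes and 19.8 in S polysomes, against 43.8, 34.7 and 69.5 in P. The states overlapped, with S monosomes high and S polysomes lowest. Its differences were 0.78, 1.10 and -0.23, so it was past 2-fold in monosomes. As deposited they were -0.16, 0.89 and -1.76, which turns the input value, takes monosomes back within 2-fold and puts polysomes past it.

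The make-up of the D cyclin pool, which does not depend on scaling between libraries, differed between the states in both lines. In Yumm1.7, Ccnd1 made up 2.55% of summed D cyclin TPM in S input, 6.23% in S monosomes and 2.65% in S polysomes, against 60.8%, 65.1% and 65.7% in P. Ccnd3 took 56.9%, 62.9% and 72.1% in S, against 25.1%, 24.4% and 17.4% in P. Thus Ccnd1 was the most abundant D cyclin mRNA in each P library and the least abundant in each S library. In A375, CCND1 made up 43.0% of the CCND1 and CCND3 sum in S input, 65.3% in S monosomes and 42.4% in S polysomes, against 63.2%, 74.2% and 68.3% in P. CCND3 exceeded CCND1 in S input and polysomes, where their ratio was 1.32 and 1.36, against 0.582 and 0.464 in P. The summed D cyclin level was 89.4, 62.1 and 93.2 TPM in A375 S and 186, 132 and 291 in P. In Yumm1.7 it was 96.7, 211 and 78.4 TPM in S and 311, 331 and 412 in P.

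**Figure D2:**
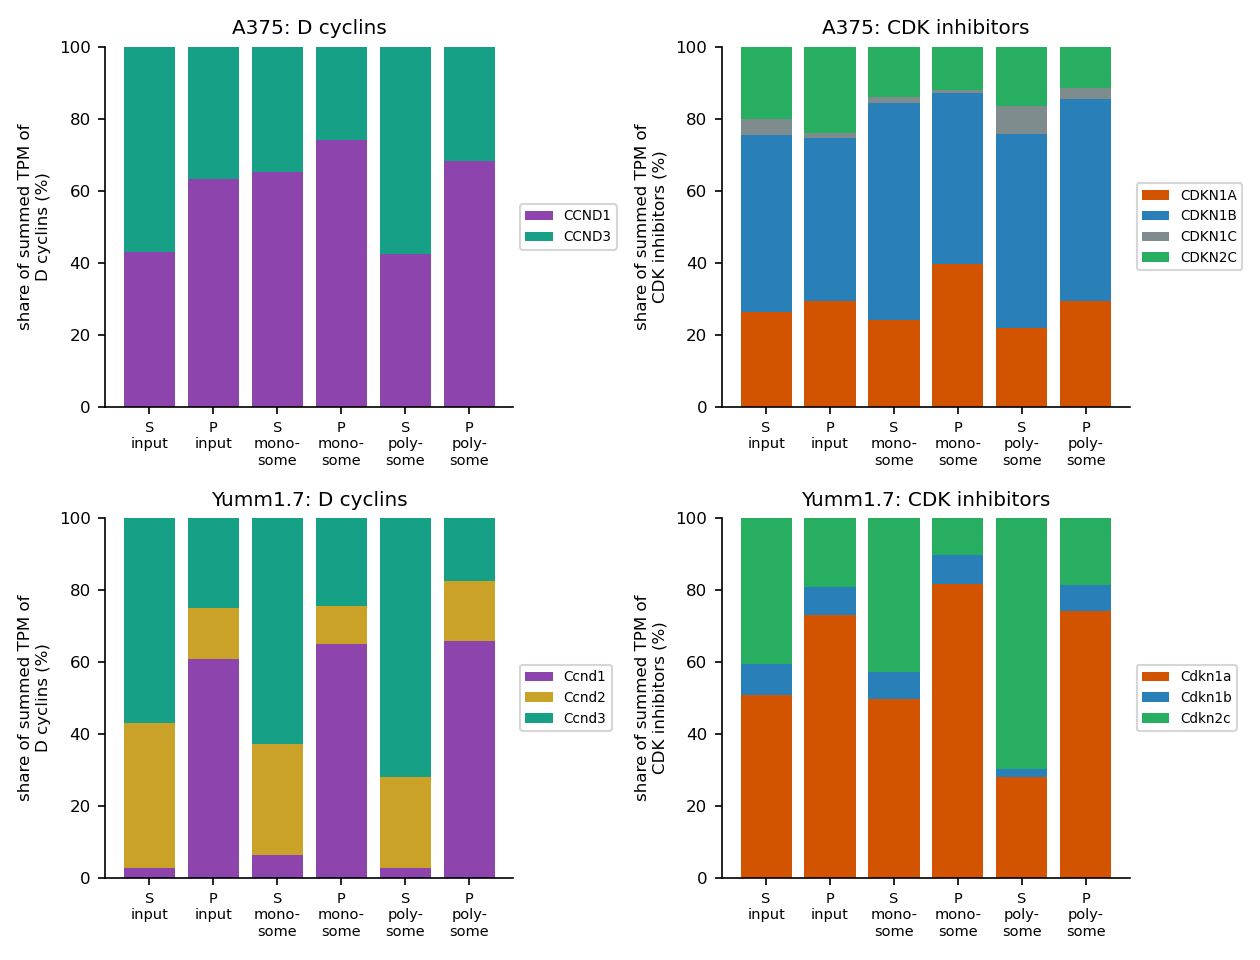
Share of each gene in the summed TPM of the D cyclins (left) and of the CDK inhibitors (right) in each library, in percent, for A375 (top) and Yumm1.7 (bottom), 1 library per bar and S left of P in each fraction. Ccnd1 fills 60.8% to 65.7% of the D cyclin bar in Yumm1.7 P and 2.55% to 6.23% in S, and Cdkn2c fills 40.7% to 69.7% of the inhibitor bar in S and 10.2% to 19.3% in P.

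Of the kinases, CDK6 was far lower in A375 S, while CDK4 was less affected. CDK6 (chromosome 7, 92604921 to 92836594, minus strand), the partner of D cyclins prominent in blood and some solid tumours, had 4.48 TPM in S input, 5.73 in S monosomes and 2.46 in S polysomes, against 27.7, 12.5 and 29.5 in P. All S libraries lay below all P libraries, and the gap was widest in polysomes. The log2 differences were -2.19, -1.05 and -2.93, and as deposited the TPM was 6.18-fold, 2.19-fold and 11.99-fold lower. With CCND1, CDK6 was therefore at least 2-fold lower in all 3 fractions of A375, as were 800 (6.33%) of 12638 genes. The monosome value of CDK6 was within 2-fold with a pseudocount of 5 TPM (-0.73). In Yumm1.7, Cdk6 was a low transcript in both states, with 2.84, 3.77 and 0.869 TPM in S input, monosomes and polysomes, against 6.01, 5.55 and 10.008 in P. Every S library was again below every P library in TPM, but only polysomes passed 2-fold relative to the median gene (0.07, -0.25 and -1.03). As deposited the values were -0.87, -0.46 and -2.56.

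CDK4, the D cyclin kinase that is mutated in some familial melanoma, was the most abundant of these mRNAs per length in 9 of the 12 libraries, the exceptions being A375 S and P monosomes and Yumm1.7 P monosomes. In A375 (chromosome 12, 57747727 to 57756013, minus strand) it had 160 TPM in S input, 50.5 in S monosomes and 214 in S polysomes, against 345, 88.8 and 294 in P. S was lower than P in each fraction, by less than 2-fold relative to the median gene (-0.91, -0.84 and -0.25) but past it in input as deposited (-1.11). In Yumm1.7, Cdk4 had 244, 356 and 255 TPM in S, against 435, 198 and 672 in P. S was lower in input and polysomes and higher in monosomes. The log2 differences were 0.11, 1.05 and 0.14 relative to the median gene, but -0.83, 0.84 and -1.40 as deposited, which turns the direction in input and polysomes. CDK4 made up 97.3% of the CDK4 and CDK6 sum in A375 S input and 92.6% in P input, and 98.9% and 98.6% in Yumm1.7.

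The CDK inhibitors did not move as a group. CDKN2C, the INK4 inhibitor p18, was the member above the median gene in S in all 3 fractions of both lines, a pattern found in 1372 (16.1%) of the 8522 matched genes. In Yumm1.7, Cdkn2c had 71.8 TPM in S input, 120 in S monosomes and 109 in S polysomes, against 55.1, 30.9 and 79.4 in P. Each S library exceeded its P counterpart, though S input lay below P polysomes. The log2 differences were 1.31, 2.14 and 1.98, past 2-fold in all 3 fractions as for 1480 (14.1%) of 10492 genes, whereas as deposited only the monosome value passed (0.38, 1.93 and 0.45). In A375, CDKN2C (chromosome 1, 50960745 to 50974633, plus strand) had 25.2, 12.9 and 23.9 TPM in S, against 23.3, 9.24 and 14.3 in P. The differences of 0.31, 0.40 and 0.91 were within 2-fold.

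CDKN1C, the imprinted inhibitor p57, was a low transcript that was at least 2-fold higher in input and polysomes of A375 S, but not in monosomes. It had 5.52 TPM in S input, 1.64 in S monosomes and 11.5 in S polysomes, against 1.44, 0.621 and 3.95 in P (chromosome 11, 2883213 to 2885773, minus strand). Each S library was above its P counterpart, and within both states polysomes held most and monosomes least. The log2 differences were 1.62, 0.66 and 1.54, and the TPM ratio as deposited was 3.85, 2.63 and 2.91. With a pseudocount of 5 TPM the input value was within 2-fold (0.85), and the gene averaged under 5 TPM.

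CDKN1B (p27), an inhibitor that accumulates in resting cells, was within 2-fold in every A375 fraction. In A375 (chromosome 12, 12715058 to 12722371, plus strand) it had 62.0 TPM in S input, 56.2 in S monosomes and 79.3 in S polysomes, against 44.5, 37.1 and 71.3 in P. S was higher in each fraction, by 0.67, 0.55 and 0.36 on the log2 scale. In Yumm1.7, Cdkn1b had 15.0, 21.2 and 3.499 TPM in S, against 22.0, 24.1 and 30.9 in P. S polysomes stood well below the other 5 libraries. The differences were 0.41 in input, 0.03 in monosomes and -1.29 in polysomes, and -0.52, -0.18 and -2.82 as deposited.

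CDKN1A (p21), a target of p53 that MAPK signalling can also raise, was close to the median gene in A375 and lower in polysomes of Yumm1.7 S. In A375 (chromosome 6, 36676460 to 36687339, plus strand) it had 33.2, 22.3 and 32.1 TPM in S input, monosomes and polysomes, against 28.6, 30.8 and 37.0 in P. It varied least of the 9 genes there, with a highest level 1.66 times its lowest. The differences were 0.40, -0.49 and 0.01, the last turning to -0.20 as deposited. In Yumm1.7, Cdkn1a had 89.6, 140 and 43.8 TPM in S, against 209, 246 and 317 in P. All S libraries lay below all P libraries. Relative to the median gene the differences were -0.27, -0.60 and -1.29, so 2-fold was passed in polysomes, and as deposited in input too (-1.21).

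RB1, the substrate of the kinases and the brake on E2F, was within 2-fold of the median gene in all 3 fractions of both lines, though not in polysomes as deposited. In A375 (chromosome 13, 48303726 to 48599436, plus strand) it had 23.0, 16.9 and 16.6 TPM in S input, monosomes and polysomes, against 28.6, 13.8 and 37.6 in P. The P polysome library was the highest. The differences were -0.10, 0.23 and -0.93, and as deposited the polysome value was -1.13. In Yumm1.7, Rb1 was low, at 2.38, 4.44 and 0.838 TPM in S, against 2.76, 4.56 and 3.10 in P, with differences of 0.78, 0.18 and 0.37 relative to the median gene. As deposited all 3 turned, to -0.15, -0.03 and -1.16, and the polysome value was past 2-fold. RB1 holds or overlaps 4 other genes of the A375 table (among them LPAR6 and RCBTB2 on the opposite strand), CCND1 overlaps LTO1, CDK4 overlaps TSPAN31 and CDKN1A overlaps DINOL. The strand setting of the quantification is not given in the sources used here, so reads of such pairs could be split either way.

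**Figure D3:**
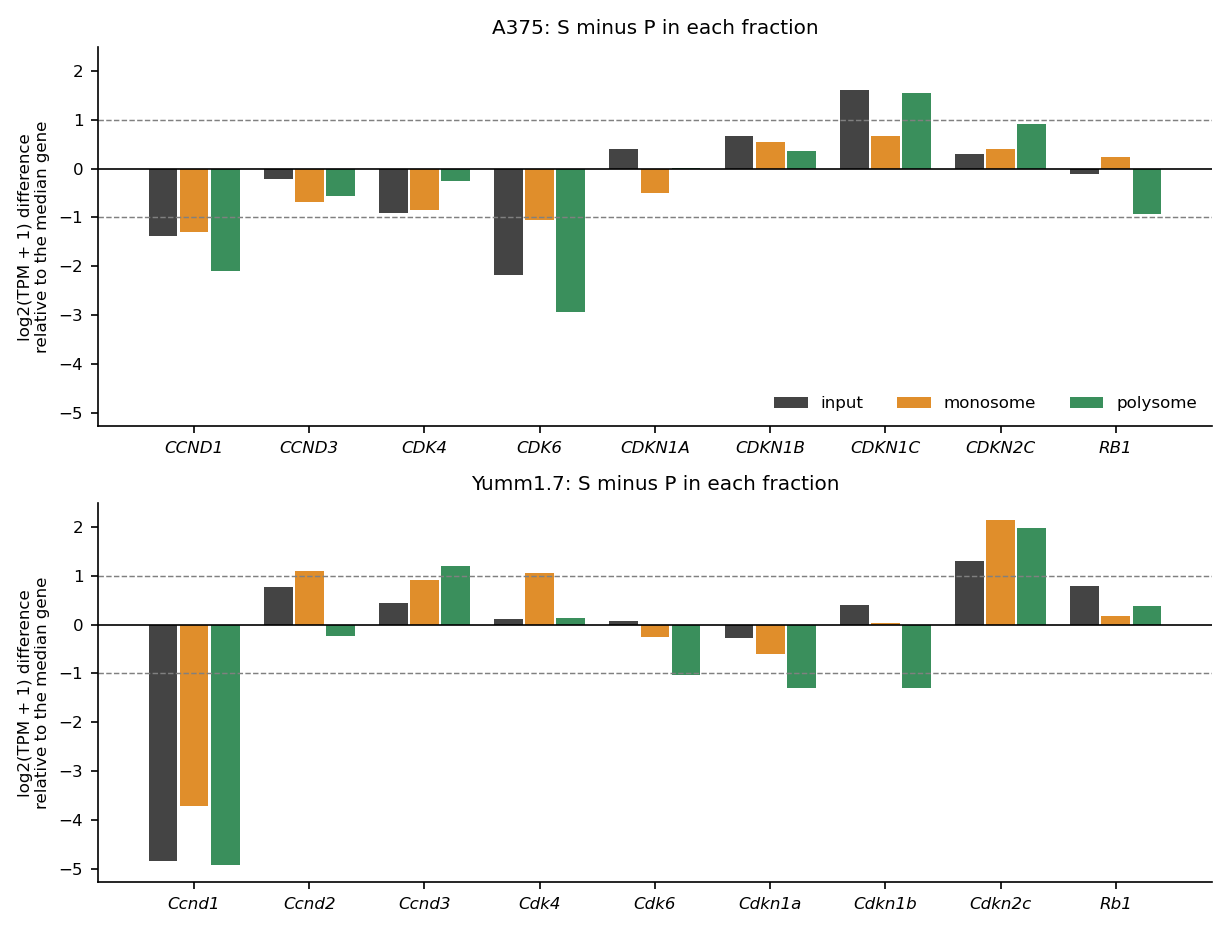
S minus P difference of each gene in log2(TPM + 1) relative to the median gene, for input, monosome and polysome libraries of A375 (top) and Yumm1.7 (bottom); dashed lines mark 2-fold and each bar compares 1 library with 1 library. CCND1 is below -1 in all 6 bars, CDK6 in all 3 A375 bars, and CDKN2C is above 0 in all 6.

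Counted over the set, members past 2-fold between S and P are given here beside the share of all genes, fraction by fraction. In A375 input, 1 of 9 was higher and 2 were lower, where 15.6% of all 12638 genes were higher and 16.2% lower. In A375 monosomes 0 were higher and 2 lower (11.7% and 13.2% of all genes), and in polysomes 1 and 2 (16.5% and 15.6%). In Yumm1.7 input, 1 of 9 was higher and 1 lower, where 23.1% and 22.3% of 10492 genes were, and in monosomes 3 and 1 (25.4% and 24.0%). In Yumm1.7 polysomes 2 were higher and 4 lower (24.1% and 22.5%). The median over the 9 genes was -0.10 in A375 input and 0.41 in Yumm1.7 input, against 0 for all genes. As deposited, 938 genes were higher and 5043 lower in Yumm1.7 input, in place of 2422 and 2336 relative to the median gene. In A375 input the split was 1498 and 2642 in place of 1969 and 2048. In Yumm1.7 polysomes it was 554 and 6827 in place of 2528 and 2358, with 0 members higher and 7 lower, and in A375 polysomes 1579 and 2605 in place of 2084 and 1966. In Yumm1.7 monosomes it was 2221 and 3061 in place of 2665 and 2521.

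The ratio of inhibitor to D cyclin mRNA was higher in S than in P in every fraction of both lines. In Yumm1.7 this held only with Ccnd1 in the D cyclin sum. This ratio is taken within a library and is free of the scaling. The 4 inhibitors of A375 summed to 1.41 times the D cyclins in S input, 1.497 times in S monosomes and 1.58 times in S polysomes, against 0.527, 0.589 and 0.434 times in P. The S ratio was 2.67, 2.54 and 3.63 times the P ratio, and no S library overlapped a P library. The 3 inhibitors of Yumm1.7 summed to 1.82, 1.33 and 1.99 times the D cyclins in S, against 0.918, 0.910 and 1.04 times in P. Here the S ratio was 1.99, 1.46 and 1.92 times the P ratio, again without overlap. Ccnd1 made up 60.8% to 65.7% of the D cyclin sum in Yumm1.7 P and 2.55% to 6.23% in S. With Ccnd1 left out, the Yumm1.7 ratio was lower in S than in P in every fraction. Without CCND1, the A375 ratio stayed higher in S in every fraction. In A375 the inhibitor sum was 126, 93.0 and 147 TPM in S and 97.9, 77.7 and 127 in P. In Yumm1.7 it was 176, 281 and 156 TPM in S and 286, 301 and 427 in P, so S had less inhibitor mRNA as deposited together with a still lower D cyclin sum.

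Set against the kinases instead of the cyclins, the lines differed. Inhibitors were 0.767, 1.65 and 0.680 times the CDK4 and CDK6 sum in A375 S input, monosomes and polysomes, against 0.263, 0.767 and 0.390 times in P. In Yumm1.7 they were 0.714, 0.783 and 0.611 times in S, against 0.648, 1.48 and 0.626 times in P. The difference of that shift between the lines was not tested.

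Within the inhibitors, the leading gene was not the same in the 2 lines. CDKN1B led in each A375 library, with 49.3%, 60.4% and 54.0% of the inhibitor sum in S input, monosomes and polysomes and 45.5%, 47.7% and 56.4% in P. Cdkn1a led in each Yumm1.7 P library (73.0%, 81.8% and 74.2%), and its share was 50.8%, 49.7% and 28.02% in S. Cdkn2c took 40.7%, 42.8% and 69.7% in S, against 19.3%, 10.2% and 18.6% in P, and thus led in S polysomes.

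How the mRNAs were spread between polysomes and monosomes was compared within each state. In A375 S, CDK4 (1.39) and CDKN1C (1.58) were at least 2-fold more polysomal than the median gene and CDK6 (-1.62) less, where 20.8% of genes were higher and 16.7% lower. In A375 P, 0 of 9 were past 2-fold in either direction (19.1% and 20.8% of genes), with values from -0.79 for CDKN1A to 0.67 for CDK4. In Yumm1.7 S, 5 of 9 were less polysomal than the median gene by at least 2-fold and 0 were more, where 10.9% of genes were lower and 13.2% higher. They were Cdkn1b (-1.84), Ccnd1 (-1.74), Ccnd2 (-1.20), Cdkn1a (-1.19) and Rb1 (-1.10). Levels in S polysomes were low for Rb1 (0.838 TPM) and Ccnd1 (2.08 TPM). Under other pseudocounts, filters and scalings Rb1 came as near 0 as -0.45, while the others stayed past 2-fold. In Yumm1.7 P, Rb1 (-1.35) and Ccnd3 (-1.08) were lower and 0 were higher, where 13.4% of genes were lower and 14.0% higher.

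The S minus P difference of the polysome-to-monosome ratio was lower by at least 2-fold for CDK6 (-1.84) and RB1 (-1.11) in A375, where 7.88% of genes were lower, and 0 members were higher, where 13.1% of genes were. CCND1 in A375 stood at -0.76. In Yumm1.7 it was lower for Cdkn1b (-1.23), Ccnd2 (-1.23) and Ccnd1 (-1.11), where 12.6% of genes were lower and 17.3% higher, and 0 members were higher. Against input instead of monosomes, the Yumm1.7 polysome value was lower for Cdkn1b (-1.71), Cdk6 (-1.10), Cdkn1a (-1.02) and Ccnd2 (-1.01), or 4 of 9, where 8.91% of genes were lower and 11.3% higher. Ccnd1 was not among them (-0.09). Of these 4 polysome-to-input values, only that of Cdkn1b stayed past 2-fold under every other pseudocount, filter and scaling tried. The values nearest 0 were -0.43 for Cdk6, -0.989 for Cdkn1a and -0.9994 for Ccnd2. Cdk6 had 0.869 TPM in S polysomes. In A375, 0 of 9 passed 2-fold in that ratio in either direction, where 2.48% of genes were lower and 5.87% higher, and the values ran from -0.80 for RB1 to 0.68 for CDK4. As deposited, these splits leaned one way: in A375 4892 genes were more polysomal by 2-fold and 614 less in S (2624 and 2114 relative to the median gene), and 6526 and 930 in P (2408 and 2634). In Yumm1.7 they were 663 and 2681 in S (1381 and 1142) and 4848 and 266 in P (1466 and 1401). For the S minus P difference of the polysome-to-monosome ratio they were 997 and 2047 in A375 (1651 and 996) and 315 and 6978 in Yumm1.7 (1812 and 1321), where 9 of 9 members were lower as deposited. For the polysome-to-input ratio in Yumm1.7 they were 357 and 3028 (1185 and 935). The mitochondrial share given above was nearly equal in the 3 S libraries of Yumm1.7 but not in P. Without mitochondrial genes and with no centring, the median S minus P difference of the Yumm1.7 polysome-to-monosome ratio was -1.13, against -1.42 as deposited. In A375 it was -0.29 both ways. The part of the mitochondrial share in these ratios was not tested further.

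**Figure D4:**
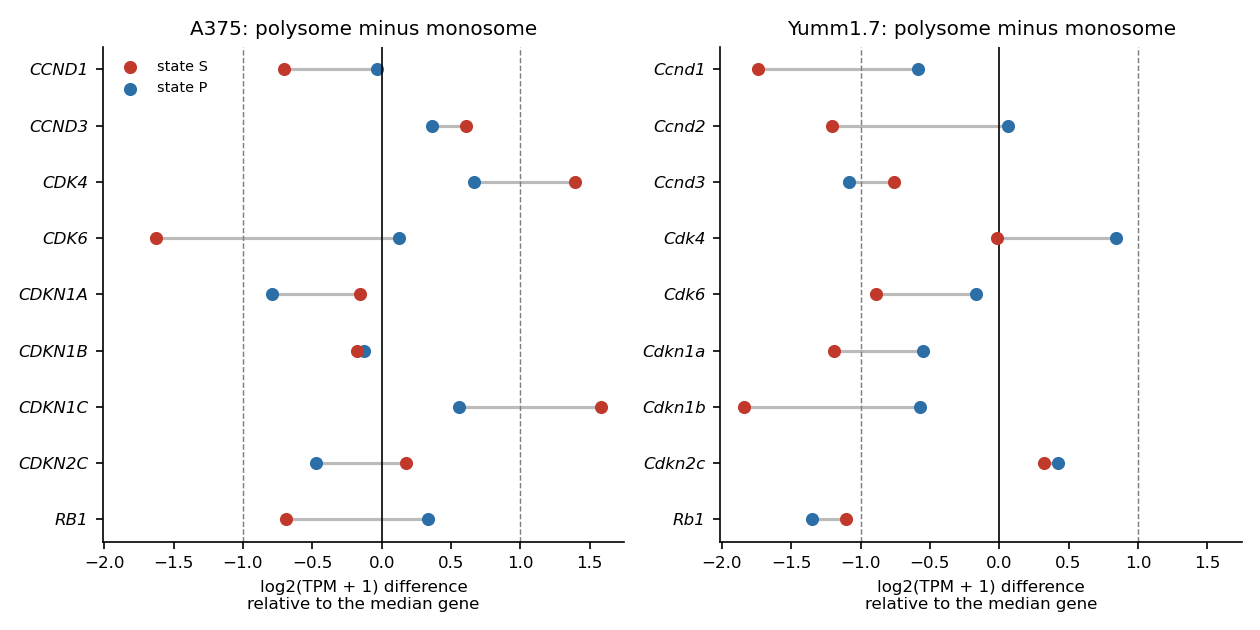
Polysome minus monosome difference of each gene in log2(TPM + 1) relative to the median gene, for state S (red) and state P (blue) of A375 (left) and Yumm1.7 (right); dashed lines mark 2-fold and each point compares 1 library with 1 library. CDK6 has the widest gap in A375 (-1.62 in S and 0.12 in P), and in Yumm1.7 Cdkn1b lies at -1.84 in S and -0.57 in P.

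The genes around these members in the pathway were followed as lists of 20 genes each. E2F target genes, which RB1 and its relatives repress in G1, were lower in S almost throughout: 19 of 20 in A375 input (median -2.89) and 20 of 20 in Yumm1.7 input (median -3.68), with 0 higher. Of all genes, 16.2% were lower and 15.6% higher in A375 input, and 22.3% and 23.1% in Yumm1.7 input. The ribonucleotide reductase gene RRM2 had 4.29 TPM in A375 S input and 212 in P input, and the thymidylate synthase gene TYMS had 9.14 and 530. In Yumm1.7, Rrm2 had 0.733 TPM in S input and 134 in P input, and the S phase cyclin gene Ccna2 was listed at 0 in S and had 84.2 in P. The gene of the list not past 2-fold in A375 input was E2F7, named after its values were seen, with 3.14 TPM in S and 8.50 in P, just inside 2-fold relative to the median gene. Of the genes averaging 5 TPM or more, the least lowered were RRM1 (15.9 and 64.3 TPM) and POLA1 (4.03 and 22.1) in A375 and Mcm3 (10.7 and 68.0) and Pola1 (listed at 0, and 8.79) in Yumm1.7, in S and P input. In monosomes 12 of 20 were lower in A375 and 19 of 20 in Yumm1.7 (13.2% and 24.0% of all genes). In polysomes 20 and 18 were (15.6% and 22.5% of all genes). Among the members, CCND3, CDK4, CDKN1A, CDKN1B and RB1 were within 2-fold in input of both lines.

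The rest of the G1 cyclin, CDK and RB axis was lower as well. Of 19 genes tested in each line, 12 were lower and 0 higher in A375 input (median -1.38; 16.2% and 15.6% of all genes), and 13 lower and 1 higher in Yumm1.7 input (median -1.29; 22.3% and 23.1% of all genes). In A375 the phosphatase gene CDC25A, which activates CDK2, had 0.728 TPM in S and 28.7 in P, and CDKN3, a CDK phosphatase expressed in dividing cells, had 5.76 and 97.8. RBL2, the pocket protein of resting cells, had 25.5 and 21.7, and TFDP2, an E2F partner, 8.75 and 8.07. In Yumm1.7, Cdkn3 had 0.333 TPM in S and 73.3 in P, the repressive E2f4 had 0.446 and 32.0, E2f1 had 31.1 and 32.3 and Cdc25a had 5.30 and 12.8. Cdkn2a, which Yumm1.7 is reported to lack and which was chosen after its values were seen, was listed at 0 in S input and had 10.5 TPM in P input. In monosomes and polysomes it had 2.10 and 2.07 TPM in S, against 10.5 and 7.38 in P.

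Of the factors that assemble or degrade D cyclins and CDK inhibitors, 6 of 19 were lower and 0 higher in A375 input (median -0.65), where 16.2% of all genes were lower and 15.6% higher. In Yumm1.7 input 4 of 18 were lower and 3 higher (median -0.02), near the 22.3% and 23.1% of all genes. DTL, which targets CDKN1A for destruction in S phase, had 0.596 TPM in S and 25.8 in P of A375 and 0.0969 and 11.8 in Yumm1.7. SKP2, the ubiquitin ligase receptor for CDKN1B, had 4.31 and 29.8 TPM in A375, and its cofactor Cks1b had 15.0 and 302.5 in Yumm1.7. FBXW7, which targets cyclin E, had 7.16 and 5.33 TPM in A375 (0.56) and 9.43 and 5.71 in Yumm1.7 (1.57). GSK3B, which phosphorylates cyclin D1 for export and decay, had 22.5 and 16.8 TPM in A375, and Ddb1, a subunit of CUL4 ligases, had 92.6 and 58.9 in Yumm1.7.

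Of the p53 target genes other than CDKN1A, 2 were higher and 4 lower of 20 in A375 input (median -0.43; 15.6% and 16.2% of all genes). In Yumm1.7 input 4 were higher and 6 lower of 19 (median -0.33; 23.1% and 22.3% of all genes). These counts were near those of all genes and are no result about the list. In A375, AEN had 6.67 TPM in S and 33.0 in P and GADD45A 18.2 and 58.5, while ZMAT3 had 15.0 and 6.49 and RRM2B 15.2 and 9.42. In Yumm1.7, Plk3 was listed at 0 in S and had 25.5 TPM in P, Gadd45a had 1.51 and 36.5, Bbc3 15.8 and 11.4 and Phlda3 116.5 and 116.4.

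Of the transcription factors that act on the member genes, 4 were higher and 2 lower of 20 in A375 input (median 0.16; 15.6% and 16.2% of all genes). In Yumm1.7 input 4 were higher and 4 lower of 18 (median -0.39; 23.1% and 22.3% of all genes), so these counts too were near those of all genes. FOSL1, an AP-1 subunit downstream of MAPK signalling, had 25.2 TPM in S and 128 in P of A375 and was listed at 0 in S against 207 in P of Yumm1.7. MYC, which represses CDKN1A, had 1.80 and 37.5 TPM in A375, and its Yumm1.7 values were 0.508 and 96.9. In A375 the AP-1 genes JUN (121 and 4.00 TPM) and FOS (43.4 and 10.8) were higher in S, and in Yumm1.7 Foxo4 (13.0 and 7.20), of the family that activates CDKN1B, and Zbtb17 (14.7 and 9.50), the MYC partner MIZ1, were higher.

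**Figure D5:**
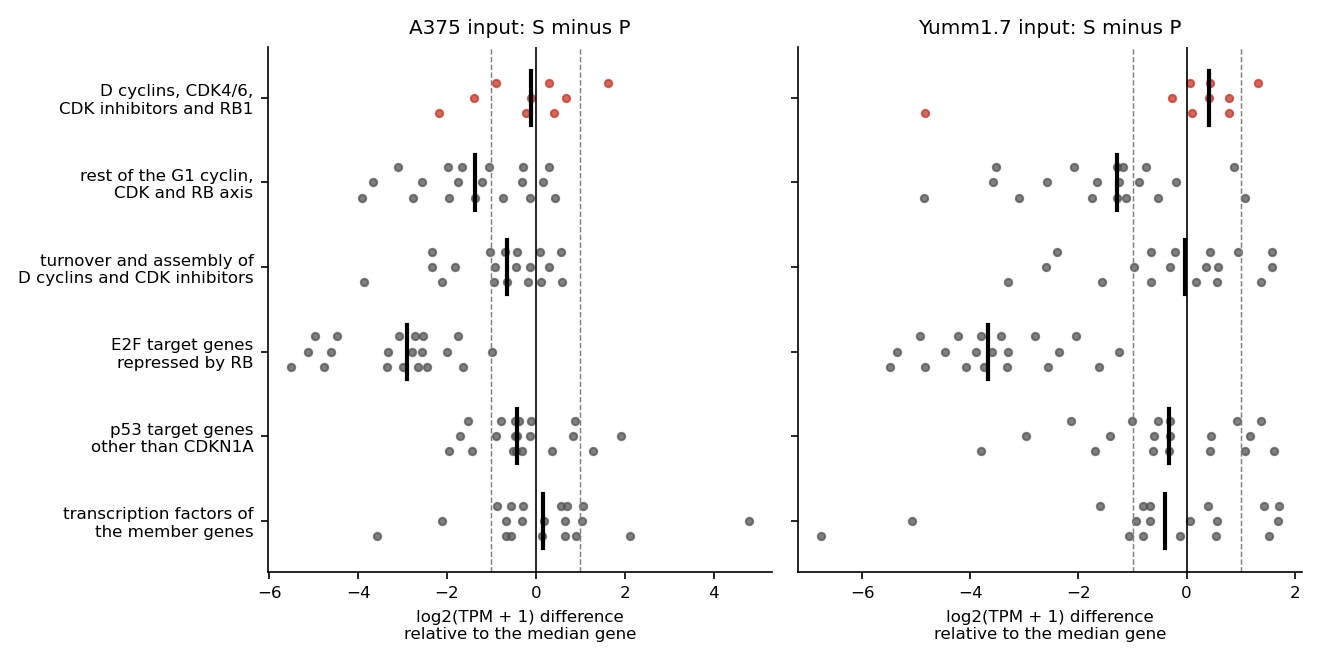
S minus P difference in input RNA, in log2(TPM + 1) relative to the median gene, of the genes described here (red) and of the genes of 5 pathway lists (grey), for A375 (left) and Yumm1.7 (right); bars are medians and dashed lines mark 2-fold. The E2F target genes sit lowest, with medians of -2.89 and -3.68, while the members' medians are -0.10 and 0.41.

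Likeness was measured as Pearson r of log2(TPM + 1), centred within each line, over the 12 libraries, among 6102 genes that averaged 5 TPM or more in both lines. Libraries of a state are not replicates and may share cells, which the labels do not say, so these r describe the profiles only. Here the median gene was not taken off, so shifts between whole libraries enter r. The profiles nearest to CCND1 were MIS18A (r 0.99), ERI1 (0.99) and FOSL1 (0.99). Those nearest to CDKN1A were FBXW11 (0.97), LSM14A (0.96) and PARP12 (0.96), and to CDKN1B RNF111 (0.95), RAB6A (0.95) and TRNT1 (0.95). CDK4 was nearest to CCDC71 (0.97), RBM19 (0.97) and ERCC3 (0.97), CCND3 to MSN (0.93), DHCR7 (0.91) and ZXDC (0.90), and CDKN2C to R3HCC1 (0.97), GNG11 (0.95) and LAMTOR2 (0.95). CDK6 and RB1 did not reach 5 TPM on average in Yumm1.7 and were not placed. Among the members themselves, CCND1 and CDKN1A had an r of 0.89 and CDKN1A and CDKN1B 0.88, while CCND1 and CDKN2C had -0.53. These r pool both lines and do not show a likeness within each. In A375, CCND1 was lower in S in every fraction and CDKN1B higher, while CDKN1A stood at 0.40, -0.49 and 0.01 from the median gene.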

How the data were processed

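Poly(A) RNA of 12 polysome profiling libraries was analysed. The authors deposited one table of TPM per cell line, per the file headers. The submitters' processing notes name the builds GRCh38 (hg38) and GRCm38 (mm10). The sources used here do not give the aligner, the quantifier or whether strand was used, so read depth is unknown and no counting interval can be given. Columns were matched to samples by name.

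From these values log2(TPM + 1) was compared between libraries for genes with mean TPM of 1 or more in the line (12638 in A375, 10492 in Yumm1.7), and the median gene's difference was taken off. With 1 library per group there is no test: a gene was counted when at least 2-fold from the median gene. Mouse and human genes were joined by symbol in capitals. From each pathway list the 2 lowest and 2 highest input differences among genes averaging 5 TPM or more were named, and for each member the 3 genes with the highest r. The members, lists and tests were chosen with earlier results of these data known. The GC box was added after the data were seen. Human coordinates are from GENCODE release 29 and promoters from RefSeq (GRCh38.p14). Proteins were not compared. The 7 alternatives were 2 other pseudocounts, 2 other filters and 3 other scalings. Python 3.11.15, numpy 2.4.6 and pandas 2.3.3 were used, and the calculation was tested on simulated data.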

Additional observations from a re-analysis of the deposited data

Results flagged for a closer look

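CCND3 and CDK4 lay on opposite sides of the median gene in the 2 lines, in all 3 fractions, which is why they are given here. For CCND3 the S minus P difference was -0.22 in input, -0.68 in monosomes and -0.56 in polysomes of A375, and 0.44, 0.92 and 1.19 in Yumm1.7. For CDK4 it was -0.91, -0.84 and -0.25 in A375, and 0.11, 1.05 and 0.14 in Yumm1.7. Each value compares 1 library with 1 library, and the difference between the lines was not tested. As deposited, Yumm1.7 Ccnd3 was -0.50 in input, 0.71 in monosomes and -0.34 in polysomes and Cdk4 was -0.83, 0.84 and -1.40, so there the lines were opposite in monosomes only.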

How the results depend on the processing

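No paired analysis was possible because each group holds 1 library and the labels carry no replicate numbers. For the same reason no library could be left out, and read depth, which would limit low genes such as CDKN1C, Cdk6 and Rb1, is unknown. Of 861 values of single members under 7 alternatives, 687 kept their direction and their side of 2-fold, 39 kept direction but came within 2-fold, 50 kept direction and passed it, and 85 changed sign. Of those 85, 79 were within 2-fold both ways, 5 passed 2-fold on the other side as deposited, and 1 had been past 2-fold: Ccnd3 in Yumm1.7 polysomes, which stood 1.19 from the median gene and at -0.34 without centring. Of 224 counts, 51 moved, either by over 1.5 times or to or from 0. Causes were not tested.

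With a pseudocount of 5 TPM, members higher were 0 in A375 input, 1 in A375 S polysomes against monosomes, 1 in A375 P polysomes against monosomes, 0 in Yumm1.7 input, 1 in Yumm1.7 monosomes, 1 in Yumm1.7 polysomes and 1 in Yumm1.7 P polysomes against monosomes. Members lower were 1 in A375 monosomes, 0 in A375 S polysomes against monosomes and 0 in Yumm1.7 P polysomes against monosomes. All genes numbered 1140 higher and 1292 lower in A375 input and 1381 higher in Yumm1.7 input. In the other comparisons named, in the same order, all genes higher were 2213 and 2174 of 12638, then 1767, 1561 and 1268 of 10492. All genes lower were 754 and 681 of 12638 and 629 of 10492. With 0.1 TPM, 1 member was higher in A375 monosomes and 1 in A375 P polysomes against monosomes, and 2 were lower in the Yumm1.7 polysome-to-input ratio. All genes so placed numbered 2096 and 2633 of 12638 and 1489 of 10492.

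With no filter, 1 member was higher in A375 P polysomes against monosomes, 1 in Yumm1.7 polysomes and 1 in Yumm1.7 P polysomes against monosomes, where 1 was lower. All genes higher numbered 3724 of 16782, then 2999 and 2033 of 12711, and 1197 were lower in the last. With a mean of 5 TPM or more, 0 were higher in A375 input and polysomes, 1 was higher in A375 S polysomes against monosomes, and 1 was lower in P polysomes against monosomes of each line. CDKN1C in A375 and Cdk6 and Rb1 in Yumm1.7 averaged less than 5 TPM and were left out of these counts. All genes higher numbered 1362, 1522 and 1935 of 9132, and all genes lower 1914 of 9132 in A375 and 1155 of 7634 in Yumm1.7.

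As deposited, 0 members were higher in Yumm1.7 input and polysomes, 1 in Yumm1.7 monosomes, 6 in A375 P and 2 in Yumm1.7 P polysomes against monosomes. Lower were 2 in Yumm1.7 input, 7 in Yumm1.7 polysomes, 9 in the Yumm1.7 polysome-to-monosome ratio, and 0 in A375 S and Yumm1.7 P polysomes against monosomes. All genes in Yumm1.7 input numbered 938 higher and 5043 lower. For the other comparisons the counts of all genes as deposited are given above. Relative to the 30% trimmed mean, 3 were lower in A375 S and 1 in A375 P polysomes against monosomes, and 1 was higher in Yumm1.7 monosomes. All genes so placed numbered 3485 and 3712 of 12638 and 2294 of 10492.

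Without mitochondrial genes and with no centring, 1 member was higher in A375 monosomes, A375 S, A375 P and Yumm1.7 P polysomes against monosomes, and 0 in Yumm1.7 input and polysomes. All genes higher numbered 2281, 1976 and 2808 of 13482 in A375, and 3568 of 10744 in Yumm1.7 P and 888 in Yumm1.7 polysomes. Lower were 3 in A375 S and 0 in Yumm1.7 P polysomes against monosomes and 7 in the Yumm1.7 polysome-to-monosome ratio. All genes lower there numbered 3480 of 13482, 447 of 10744 and 5878 of 10744. All genes in Yumm1.7 input numbered 1314 higher and 4540 lower.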
